A study of Mus musculus with 4 samples.

Results

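The Src family kinases and their partners were followed in mouse dermis, as the targets of the inhibitor PP2 and the proteins that regulate them. The set was given as 9 genes, grouped by role and not by any measured value. The broadly expressed kinases were *Src*, *Fyn* and *Yes1*, the leukocyte kinases *Lyn*, *Fgr*, *Lck* and *Blk*, and the partners *Csk* and *Ptk2*. In the probe set annotation used here, 6 of the 9 had a probe set with a single gene symbol, 12 probe sets in all, among 18193 genes and 45101 probe sets. *Lyn*, *Lck* and *Ptk2* had no such probe set and were not analysed here.

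RNA came from dermal cells of C57BL/6 female mice, listed as 10 weeks old, with 1 array for each of 4 conditions. The first was ventral (abdominal) skin at 15 days post coitum (dpc) after intradermal PP2, the second ventral skin at 15 dpc after the vehicle DMSO, the third dorsal skin at 15 dpc after DMSO and the fourth ventral skin of virgin mice after DMSO. They are called the PP2, ventral, dorsal and virgin arrays. Injections were given 2 times a day for 4 days, from 12 dpc in pregnant mice, and all 4 conditions share the injections and the enzymatic release of cells from scraped skin. Titles give 15 dpc and the sample descriptions 16 dpc. No source used here says how many mice an array stands for. With 1 array per condition no difference has an error or a test, and a ratio below describes these arrays only.

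Src family kinases are tyrosine kinases that sit at the inner face of the plasma membrane and pass on signals from integrins, growth factor receptors and immune receptors. Csk, a tyrosine kinase itself, phosphorylates a tyrosine in their C-terminal tail and thereby holds them in a closed, inactive form, which phosphatases can reopen. In skin, *Src*, *Fyn* and *Yes1* are expressed by most cell types, whereas *Lyn*, *Fgr*, *Lck* and *Blk* are best known from blood-derived cells. PP2 competes with ATP in the kinase domain, so the activity it blocks is not itself an RNA level, and an expression array measures only the transcripts.

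The start regions of the measured members differed in base composition, and 3 are shown to set broadly expressed members beside a leukocyte member. Sequences are from RefSeq on GRCm38.p6, each with 250 bases before the annotated start and 50 after it, 5′ to 3′ on the gene's strand, with every CG dinucleotide in capitals. *Src* lies at chr2:157424043-157424342 on the plus strand, *Yes1* at chr5:32610921-32611220 on the plus strand and *Fgr* at chr4:132973845-132974144 on the plus strand.
Src: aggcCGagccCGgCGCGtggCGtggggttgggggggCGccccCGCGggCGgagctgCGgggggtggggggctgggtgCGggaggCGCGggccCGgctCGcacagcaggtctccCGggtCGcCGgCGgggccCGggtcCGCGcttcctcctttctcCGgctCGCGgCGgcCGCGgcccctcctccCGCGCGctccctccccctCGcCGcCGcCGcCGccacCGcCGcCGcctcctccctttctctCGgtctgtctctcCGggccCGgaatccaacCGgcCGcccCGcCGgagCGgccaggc
Yes1: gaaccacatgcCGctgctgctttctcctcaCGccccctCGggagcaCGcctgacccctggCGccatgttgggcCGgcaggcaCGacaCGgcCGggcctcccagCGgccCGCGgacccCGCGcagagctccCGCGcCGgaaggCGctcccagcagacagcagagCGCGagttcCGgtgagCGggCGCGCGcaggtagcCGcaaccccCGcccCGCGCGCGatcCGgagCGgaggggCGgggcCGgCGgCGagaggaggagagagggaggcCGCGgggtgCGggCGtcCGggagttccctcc
Fgr: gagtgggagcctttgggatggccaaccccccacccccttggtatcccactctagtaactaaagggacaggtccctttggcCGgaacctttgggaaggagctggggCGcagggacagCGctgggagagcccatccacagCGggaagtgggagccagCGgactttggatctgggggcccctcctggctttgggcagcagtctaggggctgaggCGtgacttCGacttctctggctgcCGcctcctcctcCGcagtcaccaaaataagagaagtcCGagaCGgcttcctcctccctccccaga

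The CG dinucleotide occurred 47 times in the *Src* region, 42 times in that of *Yes1* and 31 times in that of *Fyn*, against 11 times in that of *Fgr*. The median over 32851 such regions of all genes was 7. Fewer CG dinucleotides than in *Src* were found in 98.6% of them, fewer than in *Yes1* in 97.0%, fewer than in *Fyn* in 89.4% and fewer than in *Fgr* in 58.6%. *Csk* had 2 annotated starts, with 24 and 9. The letters GGGCGG, the GC box bound by Sp1, occurred 2 times each in *Src* and *Yes1*, 1 time in *Fyn*, 1 time at 1 start of *Csk* and 0 times in *Fgr*, counting both strands, while 35.7% of all regions held them. The letters GAGGAA, found in binding sites of the myeloid factor PU.1, occurred 1 time each in *Fgr* and *Src*, 3 times at the *Csk* start with 24 CG dinucleotides, 1 time at the *Csk* start with 9 and 0 times in *Yes1* and *Fyn*, with 28.3% of all regions holding them. TATAAA was in 0 of these regions and in 13.6% of all. Which of these starts the dermal cells used was not measured, no region for *Blk* is shown, and a match of letters is a description only.

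The values are MAS5 signals, intensities on a linear scale in arbitrary units, each with a call of present, marginal or absent. Between 58.4% and 59.7% of all probe sets were called present on the 4 arrays. Fibroblast markers were present on every array (6 of 6, with a summed signal between 73174 and 103492), and so were the epidermal keratin genes *Krt5* and *Krt14*, which mark epidermis. For *Gapdh*, control probes near the 3′ end of the transcript were brighter than those near the 5′ end. A higher ratio of the 3′ to the 5′ signal can be a sign of less intact RNA. This ratio was 5.84 on the PP2 array against 1.41 on the ventral array, 2.97 on the dorsal array and 2.51 on the virgin array. The same ratio for the actin controls was 2.70, 2.03, 4.14 and 2.64 in that order, highest on the dorsal array. The summed signal of 6 hair follicle markers also stood apart, at 1611 on the PP2 array, 10460 on the ventral array, 607 on the dorsal array and 302 on the virgin array, with 3, 6, 2 and 2 of them called present. The part of these in the differences below was not tested. In such bulk RNA, fewer cells of a type and less RNA per cell cannot be told apart.

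*Src* itself, which encodes the founding member of the family, was called present on all 4 arrays by both of its probe sets and was dimmest on the ventral array. The brighter probe set (1450918_s_at) had signals of 606 on the PP2 array, 341 on the ventral array, 590 on the dorsal array and 609 on the virgin array. The other (1423240_at) had 258, 144, 164 and 171 in the same order. The first thus put 3 arrays close together above the ventral array, while the second put the PP2 array alone above the other three. The ending _s_at marks a probe set whose probes can match more than 1 transcript. The PP2 over ventral ratio was 1.78 by the first probe set and 1.79 by the second.

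*Fyn*, a kinase of integrin and immune receptor signalling, was level across the arrays. Its brighter probe set (1448765_at) had 2213 on the PP2 array, 2018 on the ventral array, 2407 on the dorsal array and 1965 on the virgin array, a span of 1.22-fold. The other (1417558_at) had 942, 1199, 1216 and 1119 in the same order. The PP2 array was the dimmest by this probe set and above the ventral and virgin arrays by the brighter one.

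*Yes1*, a close relative of *Src*, had 4 probe sets, all called present on all 4 arrays, and they disagreed. The brightest (1449090_a_at) was level, with 1737 on the PP2 array, 1594 on the ventral array, 1425 on the dorsal array and 1555 on the virgin array. By 1456843_at the signals were 213, 397, 909 and 876 in the same order, so that both the PP2 and ventral arrays lay below the dorsal and virgin arrays. By 1418470_at they were 40.2, 154, 90.1 and 75.1, with the ventral array highest and the PP2 array lowest. By the dim 1458878_at they were 84.4, 95.0, 109 and 81.2. Of the 4 *Yes1* probe sets, 2 gave a ratio past 2 in some comparison and the brightest gave none.

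Of the 3 probe sets of leukocyte members, 1 had a present call on every array and 2 had none on any. *Fgr*, a kinase of neutrophils, monocytes and macrophages, was called present on all 4 arrays by 1442804_at, with 94.0 on the PP2 array, 133 on the ventral array, 130 on the dorsal array and 140 on the virgin array. Its other probe set (1419526_at) was absent on all 4, at 45.6, 49.2, 89.3 and 78.6. *Blk*, a kinase of B cells and of some T cells, had 1 probe set, which was absent on all 4 arrays at 56.5, 66.0, 71.0 and 77.4, so no ratio is given for it. The defining B cell markers *Cd79a* and *Pax5* were called present on 0 arrays as well, and *Ms4a1* on the dorsal and virgin arrays only, at 61.3 and 66.7.

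*Csk*, the inhibitory kinase of the family, was called present on all 4 arrays by its single probe set (1423518_at). The signals were 223 on the PP2 array, 364 on the ventral array, 300 on the dorsal array and 343 on the virgin array. The PP2 array was thus the dimmest for *Csk*. For *Src* it was close to the virgin and dorsal arrays by 1450918_s_at and the brightest by 1423240_at.

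**Figure D1:**
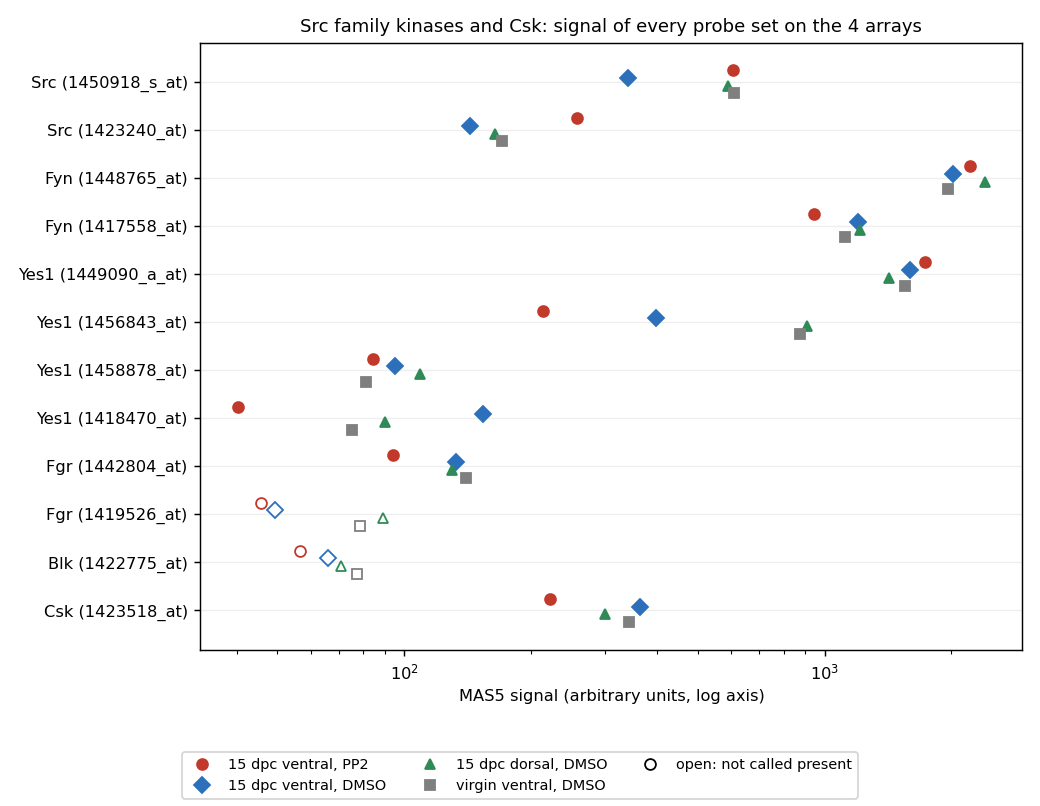
MAS5 signal (arbitrary units, log axis) of each of the 12 probe sets of *Src*, *Fyn*, *Yes1*, *Fgr*, *Blk* and *Csk*, with 1 symbol per array and open symbols where the call was not present. For *Src* by 1450918_s_at the ventral array lies at 341 and the other three between 590 and 609, while the brightest probe sets of *Fyn* and *Yes1* each stay within a span of 1.22-fold.

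To ask whether PP2 went with a change in transcripts of its own targets, the PP2 array was set against the ventral array. Each gene was read from the probe set that was brightest on average over the arrays, and counted when the ratio passed 2 in either direction with a present call on the brighter array. Of the 5 members present on at least 1 of the pair, 0 passed, where 8.62% of 12955 genes did, 3.74% higher and 4.89% lower on the PP2 array. With 5 genes and such a share, a count of 0 shows nothing particular to the members, here and in the comparisons below. *Src* had the largest ratio, 1.78 (0.83 on the log2 scale), and 5.26% of the genes had a ratio as high or higher. *Csk* was lower on the PP2 array with a ratio of 0.613 (-0.71 on the log2 scale), and 9.69% of the genes were as low or lower. *Fgr* had a log2 ratio of -0.50, *Fyn* 0.13 and *Yes1* 0.12, and the median over all genes tested was 0. At a ratio of 1.5, *Src* and *Csk* were past the threshold, in opposite directions, where 9.74% of all genes were higher and 12.8% lower, 22.5% in all. Of the 10 member probe sets present on at least 1 of the pair, 1 passed 2-fold, *Yes1* by 1418470_at, which was 3.82-fold lower on the PP2 array. Of all probe sets 11.7% passed, 3.51% higher and 8.23% lower.

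To ask about pregnancy, the ventral array was set against the virgin array, both after DMSO. Of the same 5 members 0 passed 2-fold, where 6.96% of 12744 genes did, 3.41% higher and 3.55% lower on the ventral array. *Src* was lower on the ventral array by 1450918_s_at, with a log2 ratio of -0.84, and by 1423240_at with -0.25, and 5.05% of the genes were as low or lower than by the first. *Fyn* and *Yes1* both had 0.04, *Csk* 0.08 and *Fgr* -0.08, close to the median of 0.02 over all genes tested. At a ratio of 1.5 only *Src* of these 5 was past the threshold, where 9.86% of all genes were higher and 8.58% lower, 18.4% in all. Of 10 member probe sets, 1 was over 2-fold higher and 1 over 2-fold lower on the ventral array, and both belong to *Yes1*. Of all probe sets 9.34% passed, 3.38% higher and 5.96% lower. By 1418470_at this gene was 2.05-fold higher and by 1456843_at 2.21-fold lower.

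To ask about body site in pregnancy, the ventral array was set against the dorsal array, both at 15 dpc after DMSO. Again 0 of 5 members passed 2-fold, where 10.2% of 12808 genes did, 5.25% higher and 4.96% lower on the ventral array. The log2 ratio of *Src* was -0.79 by 1450918_s_at and -0.19 by 1423240_at, that of *Fyn* -0.25, of *Yes1* 0.16, of *Csk* 0.28 and of *Fgr* 0.03, with a median of 0.04 over all genes tested. As low as *Src* or lower were 7.63% of the genes, and at a ratio of 1.5 *Src* again stood alone among these 5, where 12.6% of all genes were higher and 11.9% lower, 24.5% in all. Of 10 member probe sets, 1 passed 2-fold, *Yes1* by 1456843_at, which was 2.29-fold lower on the ventral array. Of all probe sets 13.5% passed, 5.12% higher and 8.41% lower. All 3 comparisons share the ventral array, so the low *Src* signal there enters each of them.

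**Figure D2:**
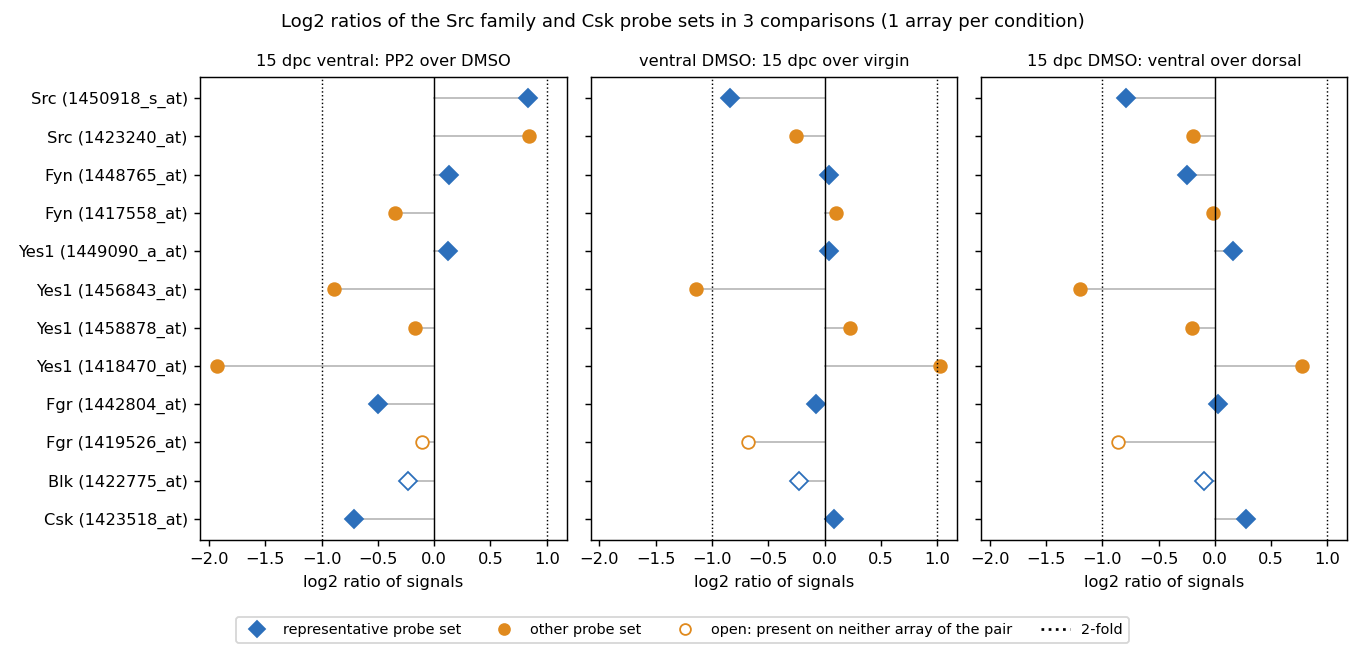
Log2 ratio of signals for every member probe set on the PP2 over the ventral array (left), the ventral over the virgin array (middle) and the ventral over the dorsal array (right), with dotted lines at 2-fold and open symbols where neither array of the pair had a present call. The representative probe sets (diamonds) all lie within 2-fold, with *Src* at 0.83, -0.84 and -0.79, and the points beyond 2-fold are *Yes1* probe sets.

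The genes around the family were read from lists of 66 genes, of which 61 had a probe set with a single symbol. On the PP2 over the ventral array 5 of 53 present genes passed 2-fold, 1 higher and 4 lower. On the ventral over the virgin array 6 of 53 did, 2 higher and 4 lower, and on the ventral over the dorsal array 6 of 52, 4 higher and 2 lower. Over all genes the shares were 8.62%, 6.96% and 10.2%.

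Among kinases related to Src, *Ptk6*, an intracellular kinase of differentiating epithelia, had 33.5 on the PP2 array, 66.3 on the ventral array, 141 on the dorsal array and 32.8 on the virgin array. It was 2.03-fold higher on the ventral than on the virgin array and 2.13-fold lower than on the dorsal array. *Frk* and *Srms*, the other 2 measured, stayed within 2-fold in the 3 comparisons, with *Frk* at 207, 214, 170 and 174 on the PP2, ventral, dorsal and virgin arrays. The second *Ptk6* probe set had 29.9, 21.9, 35.8 and 18.4 in that order, without a present call on the ventral and virgin arrays, and passed 2-fold in 0 comparisons. Of 6 epidermal markers, 5 were higher and 1 lower on the ventral than on the virgin array, with a median log2 ratio of 0.34. There 0 passed 2-fold, where 6.96% of all genes did. Against the dorsal array 1 was higher and 5 were lower, with a median of -0.60. There 2 passed 2-fold, where 10.2% of all genes did. The medians over all genes tested were 0.02 and 0.04. Between the ventral and dorsal arrays the log2 ratios of the epidermal markers lay between -5.12 for *Lor*, which encodes loricrin, and 0.19 for *Krt14*. The part of the epidermal markers in the *Ptk6* values was not tested.

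Of the phosphatases, adaptors and ubiquitin ligases that set Src family activity, 2 of 12 were over 2-fold lower and 0 higher on the PP2 array than on the ventral array, with a median log2 ratio of -0.33, where 4.89% of all genes were lower and 3.74% higher. *Sla*, an adaptor that dampens antigen receptor signalling, had 20.6 against 44.3, at least 2.15-fold lower, and *Dok2*, an adaptor of blood cells, 47.5 against 104, at least 2.20-fold lower. A second *Sla* probe set went the other way, with 25.2 on the PP2 array against 13.2 without a present call on the ventral array, at least 1.91-fold higher, and the mean of the pair did not pass 2-fold. "At least" is written where the gene was not called present on the dimmer array, and the fold then uses the higher of its signal there and the lowest signal with a present call on that array. Against the virgin array 3 of 13 were lower on the ventral array, with a median of 0.30, where 3.55% of all genes were lower. *Ptprc*, which encodes the leukocyte phosphatase CD45, had 174 against 491 (2.83-fold), *Cblb*, a ubiquitin ligase, 804 against 2090 (2.60-fold), and *Sla2*, an adaptor of lymphocytes, 32.5 against 70.2 (at least 2.16-fold). Against the dorsal array *Ptprc* was 2.04-fold higher and *Cblb* 2.53-fold lower on the ventral array, 1 each of 12. There 5.25% of all genes were higher and 4.96% lower. *Cblb* had 2 further probe sets, whose log2 ratios were -0.25 and -0.64 against the virgin array and -0.22 and -0.73 against the dorsal array. The broadly expressed phosphatases *Ptpn11*, *Ptpra* and *Ptpn1* stayed within 2-fold, *Ptpn11* with 2550, 2210, 2424 and 2042 on the PP2, ventral, dorsal and virgin arrays.

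Adhesion substrates and scaffolds mostly stayed within 2-fold. Of 24 present, 1 was higher and 2 lower on the PP2 than on the ventral array (median -0.10), 1 higher and 1 lower on the ventral than on the virgin array (median 0.06), and 0 passed between the ventral and dorsal arrays (median -0.08). In the same order 8.62%, 6.96% and 10.2% of all genes passed in either direction. *Itgb1*, the β1 integrin subunit, had 966 on the PP2 array against 2223 on the ventral array, 2.30-fold lower. Its 4 other probe sets with a present call on either array gave log2 ratios of -1.53, -1.28, -0.66 and 0.31, so they disagreed in size and 1 in direction. As the mean over its detected probe sets *Itgb1* did not pass 2-fold on the PP2 over the ventral array. On the ventral over the virgin array 1427771_x_at was at least 2.58-fold higher and 1426920_x_at at least 3.29-fold higher. There its remaining probe sets with a present call gave log2 ratios of 0.68, 0.67 and -0.08. As the mean over its detected probe sets *Itgb1* passed 2-fold in that comparison, higher on the ventral array. The largest ratio in this mean was that of the dim 1426920_x_at, with 35.2 on the ventral array against 4.02 without a present call on the virgin array. *Tln1*, the talin that links integrins to actin, had 259 against 831, 3.21-fold lower by its representative probe set, but its other probe sets gave log2 ratios of -0.18 and 0.54, and their mean did not pass 2-fold. *Itga5*, the α5 integrin subunit, had 267 on the PP2 array, 128 on the ventral array, 232 on the dorsal array and 276 on the virgin array, so that like *Src* it was dimmest on the ventral array. It was 2.08-fold higher on the PP2 than on the ventral array and 2.15-fold lower on the ventral than on the virgin array, while its other 3 probe sets were absent on all 4 arrays. *Ptk2b*, a kinase related to the focal adhesion kinase, had 233 on the ventral array against 105 on the virgin array, 2.21-fold higher. *Cav1*, *Cttn*, *Itgav* and *Pxn*, the brightest of the list, passed 2-fold in 0 comparisons, *Pxn* with 4789, 5008, 5150 and 4295 on the PP2, ventral, dorsal and virgin arrays.

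Of the partners of Src family kinases at leukocyte receptors, 3 of 9 were over 2-fold higher on the ventral than on the dorsal array, with a median of 0.30, where 5.25% of all genes were. *Tyrobp*, an adaptor of myeloid receptors, had 210 on the ventral array against 79.7 on the dorsal array, 2.64-fold higher. *Fcer1g*, the signalling chain of Fc receptors, had 161 against 54.6, at least 2.95-fold higher, and *Fcgr3*, an Fc receptor of macrophages, 106 against 8.34, at least 11.4-fold higher. On the PP2 over the ventral array 0 of 10 passed (median -0.21), where 8.62% of all genes did. On the ventral over the virgin array 0 of 9 passed, where 6.96% of all genes did. Their median was -0.27, against 0.02 over all genes tested. There *Tyrobp* had 210 against 295 and *Fcer1g* 161 against 319, which was 1.98-fold lower and just within the threshold. The T cell kinase gene *Zap70* had 801, 960, 1308 and 1165 on the PP2, ventral, dorsal and virgin arrays, by the brightest of its 3 probe sets. Its other probe sets are not given here. The summed signal of 6 T cell markers was 281, 237, 221 and 381 in the same order, with 3, 2, 2 and 3 called present. A signal also depends on the probes, so the level of *Zap70* cannot be set against these sums.

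**Figure D3:**
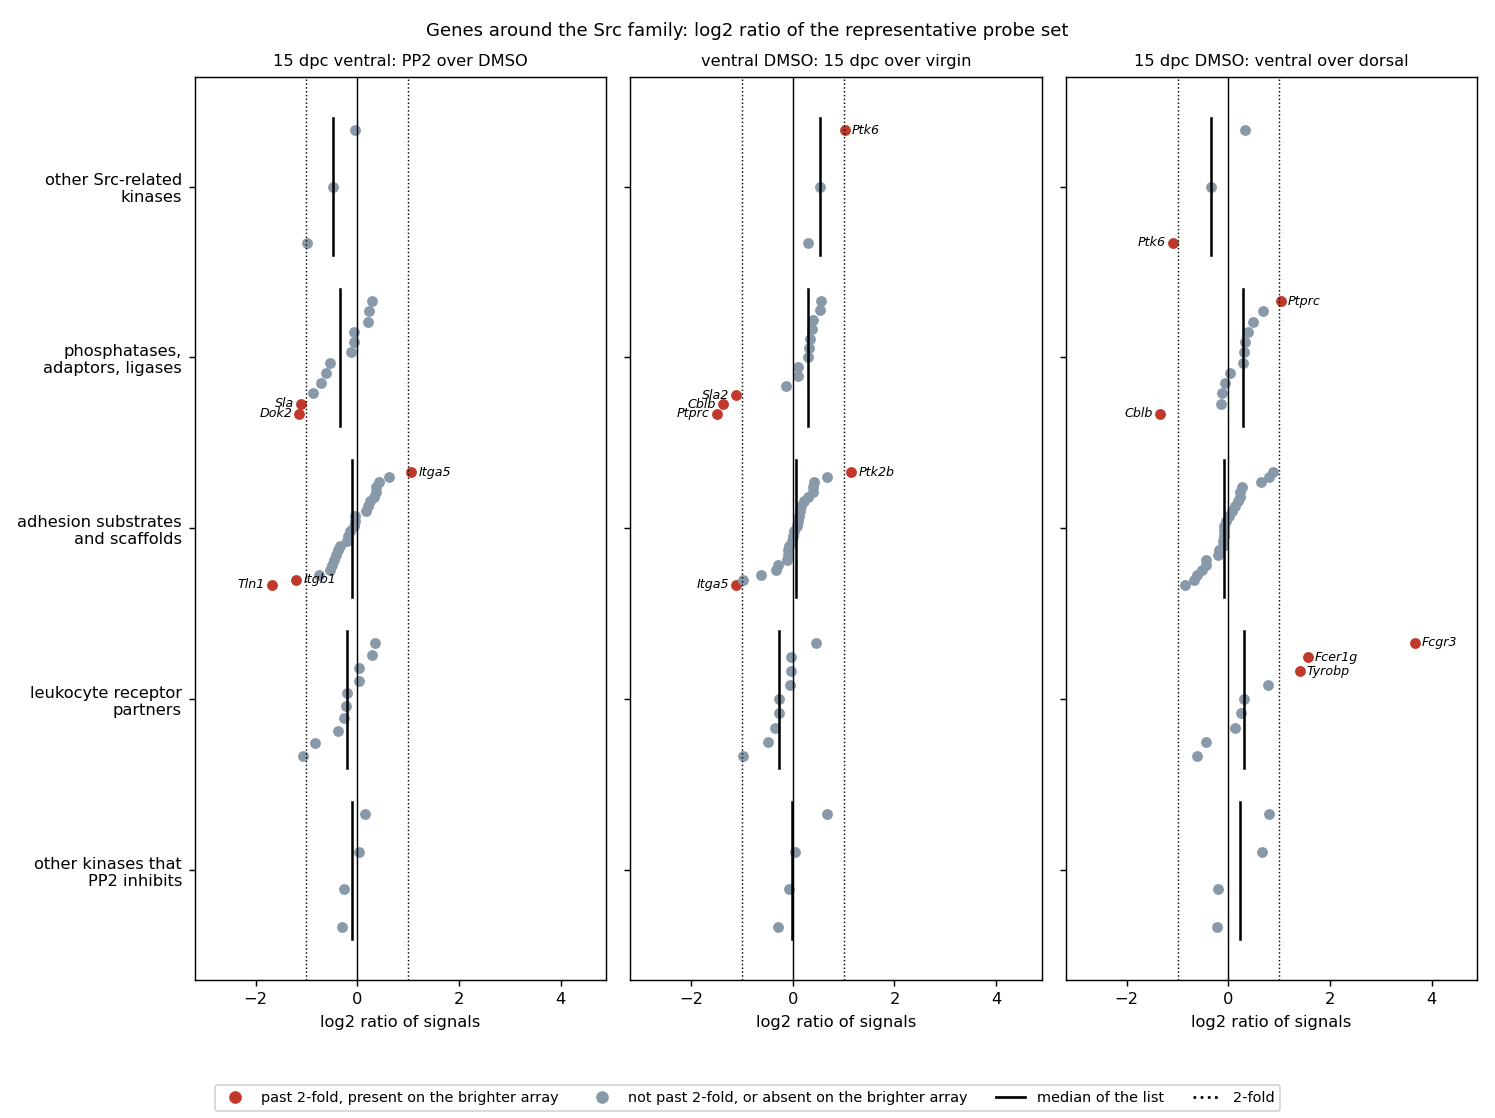
Log2 ratio of the representative probe set for the genes of 5 lists around the Src family, each present on at least 1 array of the pair, for the PP2 over the ventral (left), the ventral over the virgin (middle) and the ventral over the dorsal array (right). Red points passed 2-fold and are named, plotted at the ratio of the signals as deposited, and 3 leukocyte receptor partners stand to the right in the last panel.

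Several markers of leukocytes differed between the arrays along with these genes, while others did not. The summed signal of the 5 markers of all leukocytes was 700 on the PP2 array, 778 on the ventral array, 398 on the dorsal array and 1457 on the virgin array, with 3, 3, 2 and 4 of the 5 called present. For the 8 macrophage markers the sums were 3855, 3472, 3182 and 4804, with 7 called present on each array but the virgin array, which had 8. *Lyz2*, the lysozyme gene, made up the largest part of these sums and ran the other way between the body sites, with 2278 on the PP2 array, 1443 on the ventral array, 2301 on the dorsal array and 2051 on the virgin array. *Cd14*, a receptor for bacterial lipopolysaccharide, had 247, 278, 202 and 203 in the same order. *Adgre1*, which encodes the macrophage antigen F4/80, had 154, 219, 79.2 and 431 and *Csf1r*, the receptor of macrophage growth factors, 645, 942, 331 and 903 in the same order. Of 8 macrophage markers, 3 were over 2-fold lower on the ventral than on the virgin array, where 3.55% of all genes were. Against the dorsal array 4 of 7 were over 2-fold higher on the ventral array, where 5.25% of all genes were. Of the neutrophil markers, *S100a8* had log2 ratios of -0.54 and 0.54 in these comparisons. *S100a9* was called present on the dorsal array alone, at 64.1 against 3.68 on the ventral array. *Csf3r* and *Cxcr2* had a present call on 0 arrays. The log2 ratio of *Fgr* in the same comparisons was -0.08 and 0.03. On the PP2 over the ventral array it was -0.50, where the median over the macrophage markers was -0.26 and over the markers of all leukocytes -0.04. The part of leukocyte content in the ratios of the genes above was not tested.

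**Figure D4:**
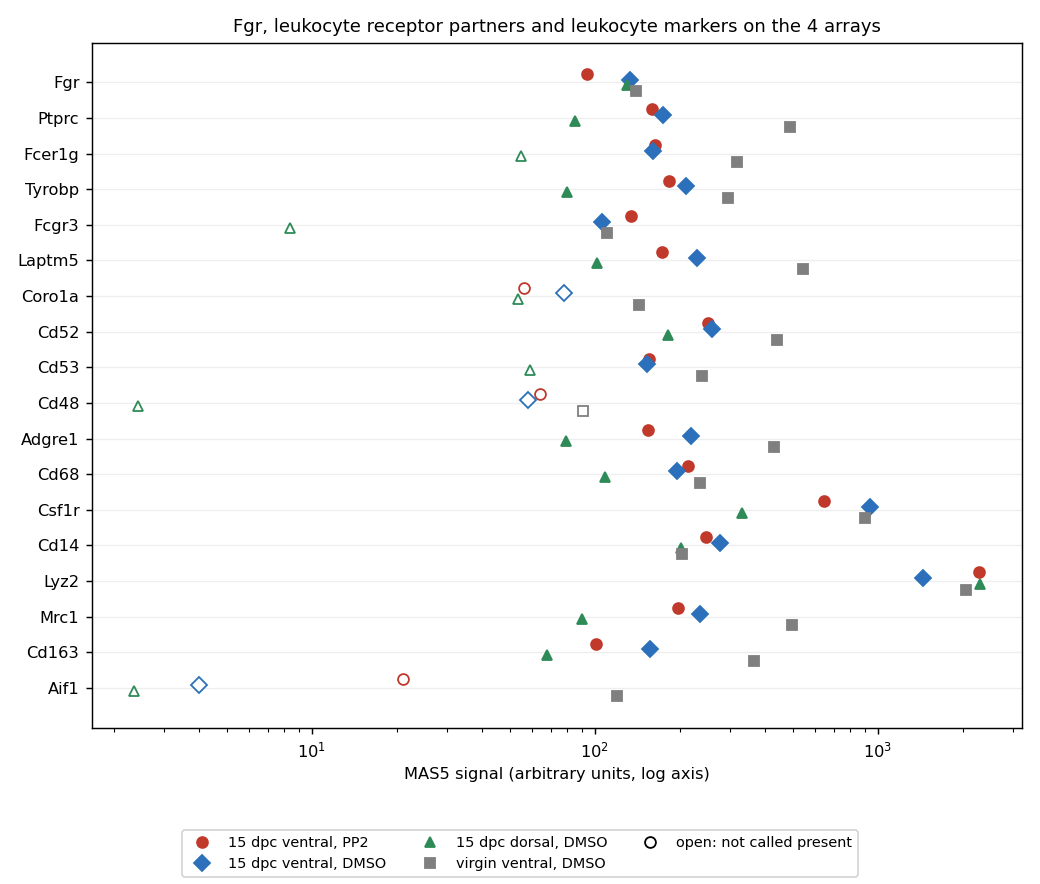
MAS5 signal (arbitrary units, log axis) on the 4 arrays of *Fgr*, of *Ptprc* and 3 leukocyte receptor partners, and of 13 markers of leukocytes and macrophages, with open symbols where the call was not present. The virgin array lies highest and the dorsal array lowest for *Ptprc* (491 and 85.3) and *Adgre1* (431 and 79.2), but *Lyz2* is highest on the dorsal array (2301), *Cd14* (278) and *Csf1r* (942) are highest on the ventral array, and *Fgr* lies between 94.0 and 140 on all arrays.

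Other kinases that PP2 is known to inhibit stayed within 2-fold as well. Of *Csnk1d*, *Abl1*, *Kit* and *Egfr*, 0 of 4 passed 2-fold in each of the 3 comparisons, where 8.62%, 6.96% and 10.2% of all genes did. With so few genes and such shares, the count shows nothing particular to these kinases. On the PP2, ventral, dorsal and virgin arrays the signals were 2575, 2504, 2917 and 2653 for *Csnk1d*, a casein kinase, and 1209, 1500, 941 and 945 for *Egfr*, the epidermal growth factor receptor.

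No member spanned 2-fold over the 4 arrays by its representative probe set, the largest span being that of *Src* at 1.79-fold.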

How the data were processed

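RNA of dermal cells was measured on Affymetrix mouse arrays, 1 for each of 4 conditions taken from the sample titles. The deposited intensity values are MAS5 signals on a linear scale, made by the authors in Affymetrix Expression Console (version 1 in the submitters' processing notes) and scaled to one trimmed mean (499.9 on each array, trimming 2% at each end). They were used as deposited, with the authors' detection calls, and the table of all arrays differed for 0 probe sets. A single symbol in the platform annotation was required: 34945 probe sets had 1, 932 several and 9147 none, and 64 were controls. Symbols were checked against the gene table of GRCm38.p6. Ratios, calls and shares were computed in Python 3.11.15 with pandas 2.3.3, and the calling was tested on simulated data. The members and lists were chosen with earlier results of these data known. All members are named, and of the lists the genes past 2-fold and up to 4 of the brightest. Alternatives were 2 scalings, 2 detection filters, a pseudocount of 32, 2 ways to join probe sets and ratios of 1.5 and 3. Precision is limited by the number of arrays.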

Additional observations from a re-analysis of the deposited data

How the results depend on the processing

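No paired analysis was possible because each condition has 1 array, and for the same reason no array could be left out. The member count was 0 in each comparison and stayed 0 under both scalings, both detection filters, the pseudocount, the mean over detected probe sets and a ratio of 3. Of these, the filter for a present call on both arrays, the pseudocount and a ratio of 3 could only lower a count. A count of 0 under them was fixed in advance. With any probe set the member count was 1 in each, *Yes1*, and at a ratio of 1.5 it was 2 on the PP2 over the ventral array and 1 in each of the others. The log2 ratio of *Src* lay between 0.77 and 0.94, between -0.85 and -0.54 and between -0.79 and -0.49 in the 3 comparisons over the main and 4 other settings. That of *Yes1* on the PP2 over the ventral array was -0.72 as the mean over its probe sets. Of the 15 member ratios, 9 kept one sign over these settings, *Src* and *Csk* in all 3 comparisons. The pseudocount could not change a sign, and for *Csk*, with 1 probe set, the mean could not differ from the main setting. Scaling to one median put the median log2 ratio of all genes at 0.11 on the PP2 over the ventral array, against 0 as deposited, and at 0.11 on the ventral over the dorsal array, against 0.04. On the PP2 over the ventral array the share of higher among all calls was 54.3% with it and 58.9% with quantile normalization, against 43.3% as deposited.

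For the genes around the family, the count of 5 on the PP2 over the ventral array was 3 with quantile normalization, 11 without a detection filter, 3 when present on both arrays, 2 with the pseudocount, 10 with any probe set, 12 at a ratio of 1.5 and 1 at a ratio of 3. The count of 6 on the ventral over the virgin array was 11 without a detection filter, 2 with the pseudocount, 10 with any probe set, 11 at a ratio of 1.5 and 0 at a ratio of 3. The count of 6 on the ventral over the dorsal array was 17 at a ratio of 1.5 and 1 at a ratio of 3. With the mean over detected probe sets the counts were 4, 6 and 4, of which 2, 5 and 4 were among the genes called before: *Itgb1*, *Tln1* and *Sla* did not pass on the PP2 over the ventral array, *Cblb* on the ventral over the virgin array, nor *Cblb* and *Ptk6* on the ventral over the dorsal array. *Itgb1* was the gene added by the mean on the ventral over the virgin array. *Blk* and 1 of 2 *Fgr* probe sets had no present call, which limits what could be read for them.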

Other observations

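*Kit*, the stem cell factor receptor of mast cells and melanocytes and a kinase that PP2 inhibits, had 148 on the PP2 array, 177 on the ventral array, 102 on the dorsal array and 217 on the virgin array. The mast cell protease genes *Cpa3* and *Cma1* were called present on the PP2 array alone. *Cpa3* had 418 there against 130 on the ventral array, at least 3.21-fold higher, and *Cma1* 195 against 76.0, at least 2.56-fold higher. The other 4 mast cell markers had a present call on 0 arrays. On the PP2 against the ventral array *Tpsb2* had 30.5 against 63.9 and *Hdc* 195 against 242. *Mcpt4* had 66.5 against 67.8 and *Ms4a2* 39.3 against 26.6. *Cpa3* and *Cma1* were counted only through their present call on the PP2 array, where they were bright, so no share is set beside them.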
